A study of Mus musculus with 35 samples.

Results

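The genes for S100 proteins, annexins, galectin-1 and AHNAK that were followed here were S100a4, S100a6, S100a8, S100a9, S100a10, S100a11, Anxa1, Anxa2, Lgals1 and Ahnak. They were taken by symbol, and all 10 were found among the 54735 genes counted in each of 35 libraries of sorted mouse liver macrophages. The libraries came from male C57Bl/6J mice fed a standard diet (SD) or a western diet (WD), which is rich in fat and cholesterol and was paired with sugared water (fructose and sucrose). Resident Kupffer cells (ResKCs, sorted as CLEC4F+ TIM4+) were taken at 12 weeks from mice on SD (n = 7) or WD (n = 5) and at 24 weeks from mice on SD (n = 6) or WD (n = 6). Weeks count time on the diet, which the study began at 5 weeks of age. Monocyte-derived Kupffer cells (moKCs, CLEC4F+ TIM4-, n = 5) and CLEC4F- macrophages (CLEC4F- macs, n = 6) came from WD mice at 24 weeks. Neither population was taken from SD mice, so both were compared only with WD cells. CLEC4F- macs were defined by the lack of a Kupffer cell surface protein and can hold several kinds of macrophage. For the 5 WD libraries at 12 weeks, the diet in the sample titles was followed, although a separate diet label of those samples reads SD. The labels do not say whether each library came from its own mouse, so p-values measure the spread between libraries, part of which may be technical.

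S100 proteins are small calcium-binding proteins with EF hands that mostly work as dimers. S100A8 and S100A9 form calprotectin, an alarmin stored in neutrophils and classical monocytes, while S100A4, S100A6, S100A10 and S100A11 are found in many cell types and bind cytoskeletal and membrane proteins. Annexins bind phospholipid membranes when calcium rises. Annexin A1 is a ligand of formyl peptide receptors that dampens leukocyte recruitment, and annexin A2 pairs with S100A10 in a complex that holds plasminogen at the cell surface. AHNAK is a giant scaffold protein that binds this complex, and galectin-1 is a secreted lectin that binds galactose-containing glycans.

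Of the 10 genes, 6 lie on chromosome 3 (GRCm38, GENCODE M21). S100a4 (chr3:90603771-90606045, plus strand), S100a6 (chr3:90612882-90624181, plus), S100a8 (chr3:90668978-90670035, plus) and S100a9 (chr3:90692632-90695721, minus) follow each other with gaps of 6.84, 44.8 and 22.6 kb. S100a11 (chr3:93520488-93526287, plus) and S100a10 (chr3:93555080-93564643, plus) lie 2825 kb further on, 28.8 kb apart. The others are Anxa1 (chr19:20373428-20390944, minus), Anxa2 (chr9:69453620-69491795, plus), Lgals1 (chr15:78926725-78930465, plus) and Ahnak (chr19:8989284-9076914, plus). All 10 are protein coding. Exons of S100a4 overlap those of Gm42674 on the same strand and exons of Anxa2 overlap those of Gm16144 on the other strand. Gm42674 had 0 reads in every library and Gm16144 had at most 4. Whether strand was used in counting is not given in the sources used here.

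Promoter sequences (RefSeq, GRCm38.p6, 250 bases before and 50 after the annotated start) were found for 8 of the 10 genes, with no entry for S100a10 and Lgals1. Those of S100a4 and S100a8 are shown as near neighbours on chromosome 3. S100a4 entered the tests only through CLEC4F- macs, so its difference there, which S100a8 lacked, is a description. Those of S100a11 and Anxa2 are shown because they hold an AP-1 motif. Capitals mark matches on either strand. The AP-1 motif was searched as TGANTCA. That of PU.1, a macrophage factor, was searched as GAGGAAG. The C/EBP motif was TTGCNNAA. The TATA box was TATAAA. The regions are chr3:90603520-90603819 (S100a4), chr3:90668821-90669120 (S100a8), chr3:93520246-93520545 (S100a11) and chr9:69453433-69453732 (Anxa2), all read on the plus strand.
S100a4: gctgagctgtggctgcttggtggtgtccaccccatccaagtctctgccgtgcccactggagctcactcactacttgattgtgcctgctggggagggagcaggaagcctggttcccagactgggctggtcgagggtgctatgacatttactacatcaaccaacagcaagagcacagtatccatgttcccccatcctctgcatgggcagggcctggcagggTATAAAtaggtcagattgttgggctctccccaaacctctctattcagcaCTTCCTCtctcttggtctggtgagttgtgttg
S100a8: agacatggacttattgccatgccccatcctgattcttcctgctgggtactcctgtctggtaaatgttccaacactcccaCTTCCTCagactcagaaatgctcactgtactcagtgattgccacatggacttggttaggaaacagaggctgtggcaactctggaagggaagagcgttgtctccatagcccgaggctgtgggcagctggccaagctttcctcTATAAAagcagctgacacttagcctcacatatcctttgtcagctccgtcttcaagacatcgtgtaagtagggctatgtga
S100a11: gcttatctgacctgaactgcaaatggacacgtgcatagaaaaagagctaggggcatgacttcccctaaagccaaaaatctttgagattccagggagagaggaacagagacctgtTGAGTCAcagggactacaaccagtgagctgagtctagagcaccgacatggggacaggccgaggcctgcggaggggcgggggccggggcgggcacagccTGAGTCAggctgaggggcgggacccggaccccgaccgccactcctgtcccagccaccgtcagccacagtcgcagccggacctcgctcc
Anxa2: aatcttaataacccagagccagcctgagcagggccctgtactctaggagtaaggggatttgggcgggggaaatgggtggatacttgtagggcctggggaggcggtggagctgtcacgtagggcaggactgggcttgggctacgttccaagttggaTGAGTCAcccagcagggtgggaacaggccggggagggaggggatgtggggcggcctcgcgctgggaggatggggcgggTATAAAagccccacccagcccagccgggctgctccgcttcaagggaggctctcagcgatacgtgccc

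The AP-1 motif was found in the promoters of S100a11, at -136 and -38 from the start, and Anxa2, at -95, and in 7.81% of all 32851 mouse promoters of this length. The PU.1 motif was found at 19 in S100a4 and at -171 in S100a8 (13.6% of all promoters), both times on the minus strand. The C/EBP motif was found at -236 in S100a9 and at -143 in Anxa1 (10.8% of all promoters). TATAAA was found at -31 in S100a4, -30 in S100a8, 1 in S100a9, -32 in Anxa1 and -17 in Anxa2 (13.6% of all promoters). The windows of S100a6 and Ahnak held none of these motifs. Positions count the first base of a match from the RefSeq start, whose first transcribed base is 1. S100a4 and S100a8 thus both held TATAAA and the PU.1 letters.

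Levels are given as CPM, the counts as a share of the TMM-scaled library total. On this scale 3 counts equalled 0.193 to 0.263 CPM, and library totals ran from 11568590 to 15163845 counts. Limits set by counting cover counting error only. The sorts were checked against fixed marker lists at 24 weeks. The 6 Kupffer cell markers, led by Clec4f, summed to between 24908 and 30591 CPM in WD ResKCs, 17729 to 25544 in moKCs and 1661 to 12877 in CLEC4F- macs. Timd4, which encodes TIM4, averaged 731 ± 116 CPM (SD, n = 6) in WD ResKCs, 12.4 ± 11.5 (n = 5) in moKCs and 8.23 ± 4.00 (n = 6) in CLEC4F- macs. The 8 classical monocyte markers summed to 224 to 350 CPM in WD ResKCs, 216 to 438 in moKCs and 496 to 1509 in CLEC4F- macs. In bulk samples, fewer cells of a type and less RNA per cell cannot be told apart. The file headers follow one naming scheme in 22 libraries and another in 13, and what the change of scheme stands for is not given in the sources used here. The WD groups at 24 weeks hold libraries of both schemes, while the SD group at 24 weeks and the WD group at 12 weeks hold the first alone.

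The genes fell into very different ranges. Per kilobase of exon, Lgals1 was the highest of the 10 in CLEC4F- macs, with a mean level of 168 CPM per kb, ahead of Anxa2 at 76.6 and S100a11 at 73.1. In WD ResKCs at 24 weeks Anxa2 led with 41.8 CPM per kb, followed by Lgals1 with 21.3, and Ahnak (0.821) and S100a4 (0.707) were lowest. For Anxa2, Lgals1, S100a11, S100a10, S100a6 and Anxa1 the group means stood in 1 order among the cells at 24 weeks. It ran from SD ResKCs over WD ResKCs and moKCs to CLEC4F- macs. The last step passed the test for all of these genes but Anxa2. The step from SD to WD ResKCs passed for Anxa2 and Lgals1, and the step from WD ResKCs to moKCs for none. S100a8 and S100a9 stayed under 3 CPM in every library.

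**Figure D1:**
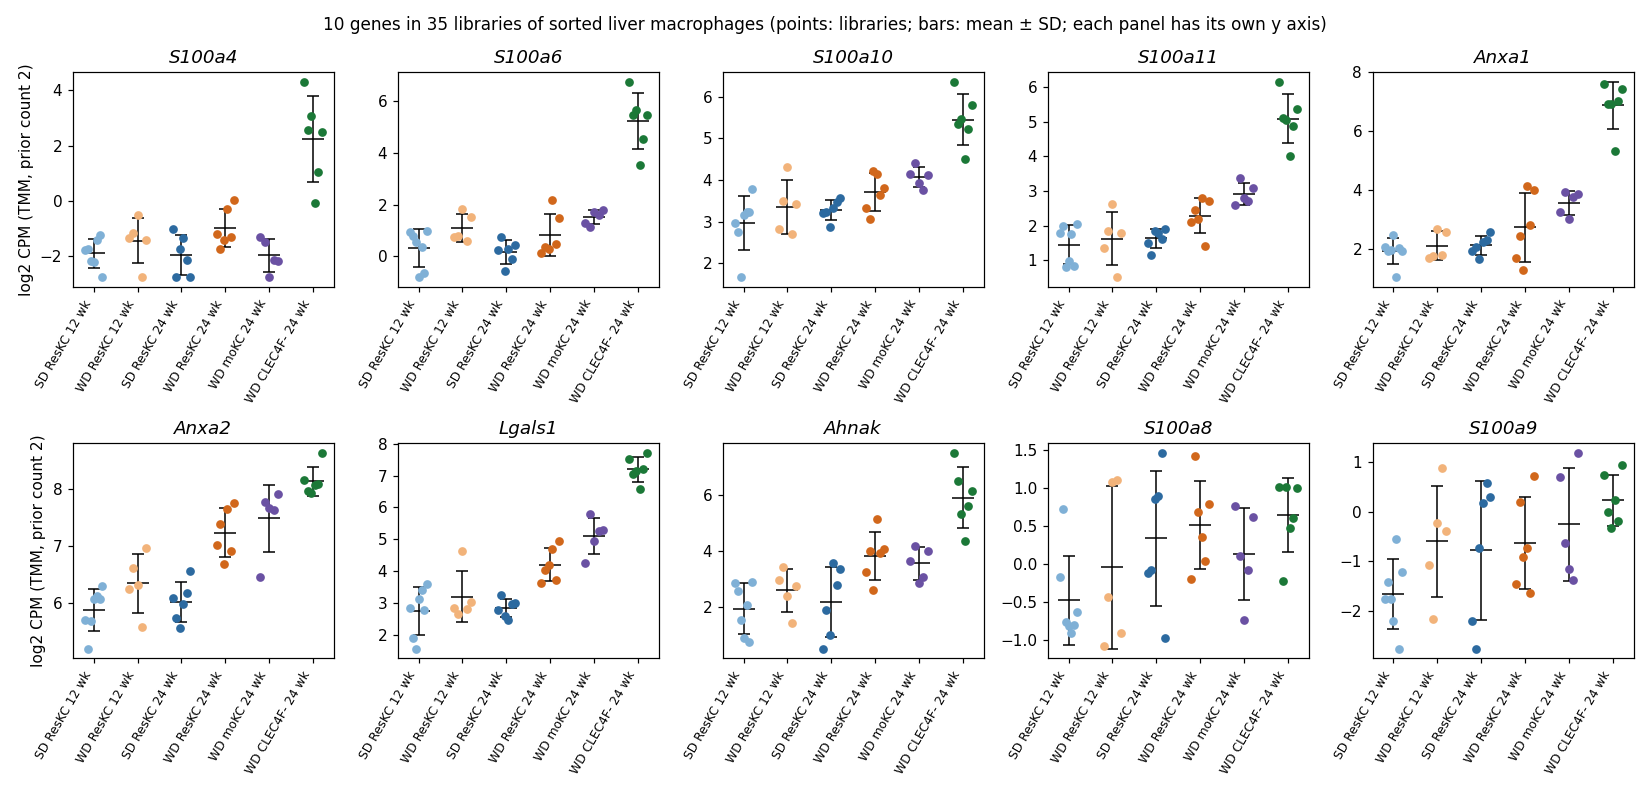
Level of the 10 genes in each library, as log2 CPM (y axis, own scale for each panel) in the 6 groups (x axis), with group mean and SD as bars. CLEC4F- macs stand above every other group for S100a6, S100a10, S100a11, Anxa1 and Lgals1, and by a small margin for Anxa2. The groups overlap for S100a8 and S100a9.

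The comparison of CLEC4F- macs with ResKCs of WD mice at 24 weeks asks how macrophages without the Kupffer cell protein differ from resident Kupffer cells at the same age and on the same diet. Higher levels were found in CLEC4F- macs for 7 of the 10 genes (adjusted p under 0.05 and over 1 on the log2 scale), namely S100a4, S100a6, S100a10, S100a11, Anxa1, Lgals1 and Ahnak, against 6.04% of all genes tested. None was lower. DESeq2 and limma-voom called 7 each. S100a4 was tested at all because it exceeded 1 CPM in 5 libraries, all of them CLEC4F- macs, so its difference was built into the filter and is given as a description. Without it, 6 of 9 genes were called. The median log2 difference was 2.21 over these 9 and 0.02 over all genes tested.

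Anxa1 was the clearest of the annexins. Its level in the 6 CLEC4F- mac libraries was 40.4 CPM at the lowest, 127 at the median and 196 at the highest. In the 6 WD ResKC libraries it was 2.3 at the lowest, 6.14 at the median and 17.7 at the highest. Every CLEC4F- mac library was above every ResKC library, and the log2 difference was 3.93 (SE 0.38, adjusted p = 9.31e-10, edgeR).

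Anxa2, the other annexin, was abundant in both populations. It lay between 243 and 398 CPM (median 270) in CLEC4F- macs and between 102 and 216 (median 148) in WD ResKCs. The groups did not overlap, but the difference of 0.88 (SE 0.22) stayed under the fold limit, with an adjusted p of 0.00257. S100a10, the partner of annexin A2 in the plasminogen-binding complex, averaged 47.0 ± 20.2 CPM (SD, n = 6) in CLEC4F- macs and 13.4 ± 4.13 (n = 6) in WD ResKCs. Its lowest CLEC4F- mac library (22.6 CPM) was above its highest ResKC library (18.5), and the log2 difference was 1.81 (SE 0.28, adjusted p = 4.75e-06). The ratio of Anxa2 to S100a10, both per kb of exon, had a median of 2.17 in CLEC4F- macs (1.13 to 3.86) and 3.95 in WD ResKCs (1.79 to 6.63). The ratios overlapped between the groups, and their difference was not tested.

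S100a6, which encodes a calcium sensor also called calcyclin, showed the largest difference of the 10 genes in this comparison. It stood at 108, 44.1, 50.7, 11.5, 22.9 and 44.1 CPM in replicates 1 to 6 of the CLEC4F- macs. In WD ResKCs it stood at 0.942, 1.15, 1.07, 4.36, 1.23 and 2.68 CPM. The lowest CLEC4F- mac library was above the highest ResKC library, and the log2 difference was 4.61 (SE 0.44, adjusted p = 7.70e-10).

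S100a11, whose product binds annexin A1, averaged 37.4 ± 18.5 CPM (SD, n = 6) in CLEC4F- macs and 4.96 ± 1.60 (n = 6) in WD ResKCs. The groups did not overlap, and the log2 difference was 2.91 (SE 0.31, adjusted p = 6.73e-09). S100a4, a cytoskeletal S100 protein that binds non-muscle myosin, had 284, 90, 127, 11, 24 and 77 reads in replicates 1 to 6 of the CLEC4F- macs. In WD ResKCs its library counts ran from 2 to 11. In CPM the CLEC4F- mac libraries ran from 0.803 to 19.7, and replicate 4 overlapped with the ResKCs, whose highest library had 0.866. The fitted log2 difference was 4.05 (SE 0.67).

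Lgals1 lay between 95.1 and 210 CPM (median 144) in CLEC4F- macs and between 12.1 and 30.6 (median 17.1) in WD ResKCs. The groups were far apart, with a log2 difference of 2.98 (SE 0.33, adjusted p = 1.06e-08). Ahnak lay between 20.5 and 184 CPM (median 59.7) in CLEC4F- macs and between 5.90 and 35.1 (median 15.6) in WD ResKCs. Here 5 of the 6 CLEC4F- mac libraries were above every ResKC library, and the log2 difference was 2.21 (SE 0.50, adjusted p = 0.000636). Without CLEC4F- mac replicate 1, its highest library, it was 1.74 (adjusted p = 0.00564).

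**Figure D2:**
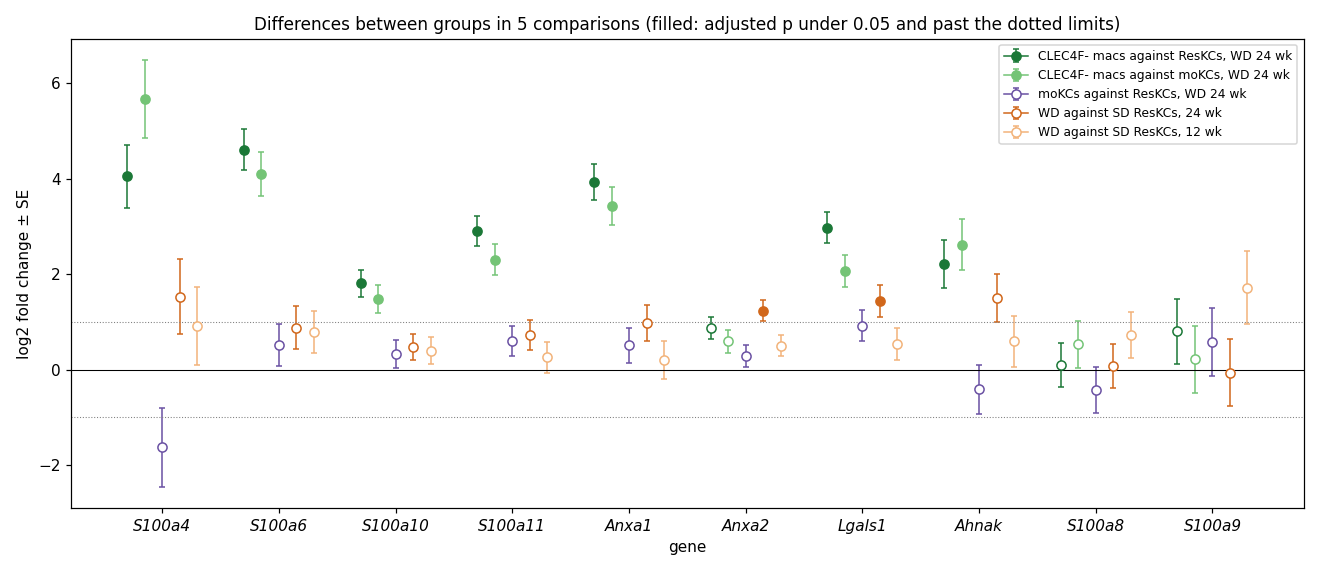
Log2 fold change with SE (y axis) of each gene (x axis) in 5 comparisons. Filled points had an adjusted p under 0.05 and lay past the dotted limits at 1 and -1, which holds for 7 genes in both comparisons of CLEC4F- macs and for Anxa2 and Lgals1 in the comparison of WD with SD ResKCs at 24 weeks.

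Against moKCs, which share the CLEC4F+ gate with ResKCs but lack TIM4, the CLEC4F- macs again had higher levels of 7 genes, against 2.71% of all genes tested. They were S100a4, S100a6, S100a10, S100a11, Anxa1, Lgals1 and Ahnak. S100a4 is again a description, since only CLEC4F- macs carried it past the filter, and 6 of 9 genes were called without it. DESeq2 and limma-voom also called 7 each. This comparison shares its CLEC4F- mac libraries with the one above, so the values are set side by side. The log2 difference was 4.10 for S100a6 (SE 0.46, adjusted p = 1.93e-07) and 3.42 for Anxa1 (SE 0.40, adjusted p = 2.71e-07). It was 2.62 for Ahnak (SE 0.54, adjusted p = 0.000629), 2.30 for S100a11 (SE 0.32), 2.06 for Lgals1 (SE 0.34, adjusted p = 3.32e-05) and 1.48 for S100a10 (SE 0.30, adjusted p = 0.000433). Every CLEC4F- mac library was above every moKC library for each of these 6 genes and for Anxa2. The share of all genes whose groups did not overlap was not counted, here or in the other comparisons.

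S100a4 reads in the 5 moKC libraries numbered 0 to 4. The moKC mean of 0.125 ± 0.107 CPM (SD, n = 5) lay below the floor of 3 counts, so no fold is given, and the fitted value in the plot of fold changes depends on the prior count. Anxa2 stood at 87.0, 219, 202, 197 and 241 CPM in replicates 1 to 5 of the moKCs, and replicate 1 was far below the rest. Its difference from CLEC4F- macs of 0.59 (SE 0.24) had an adjusted p of 0.0853. Lgals1 stood at 19.1, 55.5, 30.3, 38.4 and 38.7 CPM in moKCs, and replicate 1 was again the lowest.

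The 6 CLEC4F- mac libraries were unlike each other. Of the 8 genes other than S100a8 and S100a9, replicate 4 held the lowest value for 7 and replicate 1 the highest for 6, with replicate 6 highest for Anxa2 and Lgals1. Kupffer cell markers summed to 12877 CPM in replicate 4, against 1661 in replicate 1 and 3312 to 6089 in the others. Classical monocyte markers summed to 496 CPM in replicate 4, 1509 in replicate 1 and 766 to 1252 in the others. The libraries with the most and the fewest Kupffer cell transcripts were therefore the ones with the lowest and the highest levels of most of these genes. Dendritic cell markers (6 genes) summed to 180 CPM in replicate 1 and 21.7 to 72.5 in the others, and lymphocyte markers (7 genes) to 112 CPM in replicate 1 and 8.46 to 21.6 in the others. WD ResKCs ran from 10.1 to 20.8 CPM and from 4.89 to 8.20 for those lists. Stellate cell or fibroblast markers (7 genes) summed to 77.1 to 274 CPM in CLEC4F- macs, 46.2 to 113 in WD ResKCs and 88.8 to 193 in moKCs. Called higher in CLEC4F- macs than in ResKCs were 4 of 7 classical monocyte markers tested, 3 of 6 dendritic cell markers, 4 of 4 lymphocyte markers tested and 4 of 7 stellate cell or fibroblast markers. The part of any of these cell types in the differences was not tested.

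Of the 8 monocyte markers, Ccr2, the receptor that brings monocytes into tissues, made up most of the sum in CLEC4F- macs, where it averaged 716 CPM against 6.03 in WD ResKCs. Ly6c2 averaged 7.38 and 0.215 CPM in these groups, and Vcan 0.613 and 0.0734. Patrolling monocyte markers (6 genes) summed to 566 to 1154 CPM in CLEC4F- macs and 709 to 1029 in WD ResKCs, with 3 genes called higher and 1 lower in CLEC4F- macs. Hepatocyte markers (10 genes) summed to 823 to 3023 CPM in CLEC4F- macs and 1128 to 3349 in WD ResKCs. Immediate-early and heat-shock genes (10 genes) summed to 1806 to 8496 CPM in CLEC4F- macs and 853 to 3838 in WD ResKCs, and 3 of them were called higher in CLEC4F- macs. With the mean of the centred log2 CPM of these 10 genes as a covariate the 7 genes were still called. Anxa2 passed as well at 1.02 (adjusted p = 0.000608).

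Leaving replicate 4 out of the CLEC4F- macs gave log2 differences from ResKCs of 4.82 for S100a6, 4.12 for Anxa1 and 3.08 for Lgals1, with 7 genes called. Leaving out replicate 1 gave 4.19 for S100a6, and S100a4 then no longer passed the filter, which left 6 genes called. S100a4 also failed the filter without replicate 2, 3, 5 or 6, with 6 genes called each time. Within the first naming scheme, with 3 libraries a group, 7 genes were called, with differences of 6.00 for S100a6, 5.36 for Anxa1 and 3.35 for Ahnak. Within the second, also with 3 a group, 5 were called, with 3.23 for S100a6 (adjusted p = 0.00262) and 3.08 for Anxa1 (adjusted p = 0.00159). In the second, S100a4 at 2.16 (adjusted p = 0.118) and Ahnak at 1.06 (adjusted p = 0.244) did not pass. The difference of CLEC4F- macs from moKCs was called for 7 genes within the first scheme and 6 within the second, where Ahnak at 2.16 had an adjusted p of 0.072.

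**Figure D3:**
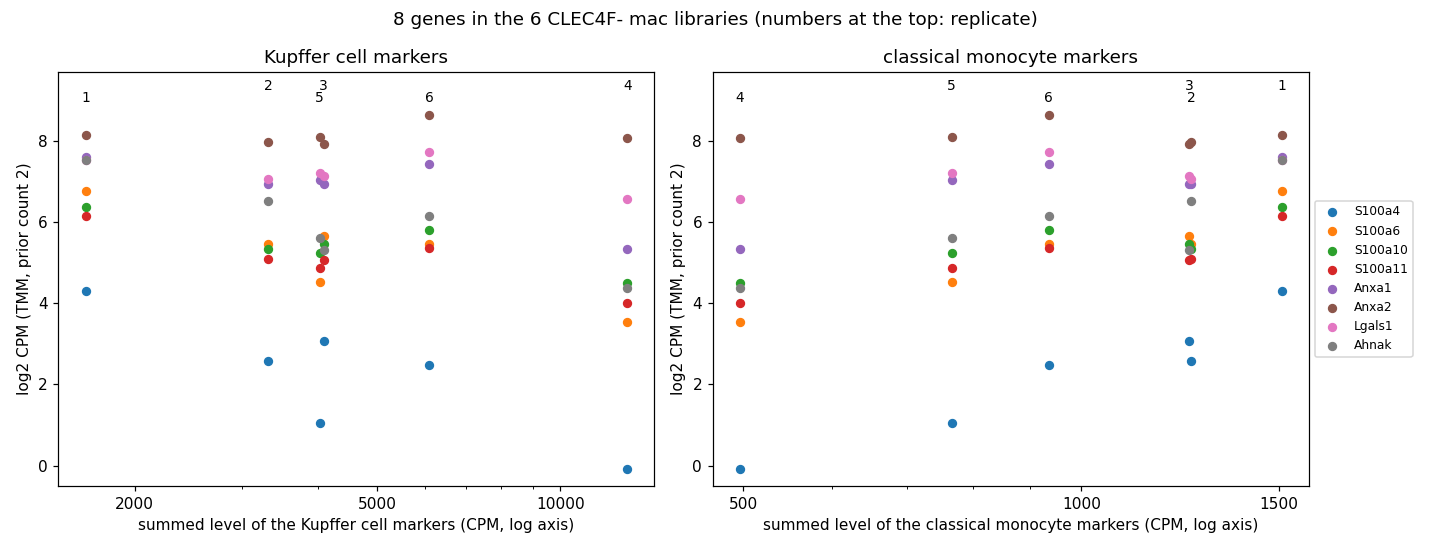
Log2 CPM of 8 genes (y axes) in the 6 CLEC4F- mac libraries against the summed level of the Kupffer cell markers (left, CPM, log axis) and of the classical monocyte markers (right, CPM, log axis), with replicate numbers at the top. Replicate 4, at 12877 CPM of Kupffer cell markers, holds the lowest value of 7 genes, and replicate 1, at 1661 CPM, the highest of 6.

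Between the CLEC4F+ populations, none of the 10 genes was called higher or lower in moKCs than in ResKCs of WD mice at 24 weeks. Of all 13421 genes tested, 0.536% were called higher and 114 genes lower. With edgeR 1 of the 10 had an unadjusted p under 0.05, beside 2135 of all 13421 genes tested, and DESeq2 and limma-voom called 0 of the 10. That gene was Lgals1, with a log2 difference of 0.92 (95% interval 0.25 to 1.58, adjusted p = 0.125). For Anxa2 the interval ran from -0.19 to 0.76, for S100a10 from -0.26 to 0.92, for S100a11 from -0.03 to 1.25, for Anxa1 from -0.25 to 1.26 and for Ahnak from -1.45 to 0.64. Differences of 2-fold, 1 on the log2 scale, thus lay outside the interval for Anxa2 and S100a10 but not for the other 4. The groups overlapped for every gene.

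This comparison leaned on 2 ResKC libraries. WD ResKC replicates 4 and 6 held the highest level for 4 and 3 of the 8 genes, for example Anxa1 at 17.7 and 16.1 CPM against 2.3 to 6.92 in the other 4. With both left out, an alternative chosen after these values were seen, Anxa1 (1.47, adjusted p = 0.0131) and Lgals1 (1.29, adjusted p = 0.0419) were called higher in moKCs, and Anxa2 (1.14) was called higher in CLEC4F- macs than in ResKCs. Within the first naming scheme (2 moKC and 3 ResKC libraries) Anxa1 was called at 1.79 (adjusted p = 0.0141), and within the second, which holds replicates 4 and 6, its difference was -0.17 and no gene was called. The resident Kupffer cell markers (4 genes, with Timd4) summed to 2243 and 2451 CPM in these 2 libraries and to 2749 to 4780 in the others. Their part in the result was not tested.

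The diet comparison in ResKCs at 24 weeks asks how cells of this gate differed between WD and SD mice. In bulk samples, a change within cells and a changed mix of cells cannot be told apart. Here 2 of the 10 genes, Anxa2 and Lgals1, were called higher on WD, against 2.38% of all genes tested. None of the 10 was called lower, beside 131 of all 13421 genes tested. DESeq2 called 3 and limma-voom 2. Without S100a4, whose level in SD ResKCs was below the floor, the median log2 difference was 0.88 over 9 genes, and it was 0.0038 over all genes tested.

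Anxa2 ran from 47.1 to 93.6 CPM (median 65.4) in SD ResKCs and from 102 to 216 (median 148) in WD ResKCs. Every WD library was above every SD library, and the level was 2.36-fold higher (log2 difference 1.24, 95% interval 0.77 to 1.70, adjusted p = 0.000767). Lgals1 ran from 5.37 to 9.25 CPM (median 7.19) in SD ResKCs and from 12.1 to 30.6 (median 17.1) in WD ResKCs. Again the groups did not overlap, and the level was 2.71-fold higher (log2 difference 1.44, 95% interval 0.76 to 2.11, adjusted p = 0.00627). Both were called whichever 1 library was left out, at 1.12 to 1.36 for Anxa2 and 1.25 to 1.54 for Lgals1.

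Ahnak and Anxa1 came close to the limits without passing them. Ahnak averaged 5.82 ± 4.33 CPM (SD, n = 6) on SD and 16.4 ± 10.1 (n = 6) on WD, a log2 difference of 1.5 (SE 0.51, adjusted p = 0.0591), and 4 of 6 WD libraries were above every SD library. Anxa1 averaged 4.33 ± 0.989 on SD and 8.57 ± 6.65 on WD, a difference of 0.98 (SE 0.38, adjusted p = 0.0949). Only 3 of its WD libraries were above every SD library, and without replicates 4 and 6 the difference was 0.016. Ahnak passed with 1 library left out when that was SD replicate 4 (1.82, adjusted p = 0.0396), SD replicate 6 (1.72, adjusted p = 0.0459) or WD replicate 3 (1.67, adjusted p = 0.0438). Anxa1 passed without WD replicate 1 (1.16, adjusted p = 0.0492) or WD replicate 3 (1.18, adjusted p = 0.04). S100a4 had 0 to 5 reads in SD libraries and 2 to 11 in WD libraries, and no fold is given. The other S100 genes of this group had differences of 0.88 for S100a6 (adjusted p = 0.229), 0.72 for S100a11 (adjusted p = 0.144) and 0.48 for S100a10 (adjusted p = 0.302), with none past the test.

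The SD and WD libraries at 24 weeks also differed in 10 immediate-early and heat-shock genes such as Fos, Jun and Hspa1a, which cells switch on fast when handled or stressed. Their summed level was 1861 to 10172 CPM in SD ResKCs and 853 to 3838 in WD ResKCs. Of the 10, 6 were called lower on WD, beside 131 of all 13421 genes tested. The mean log2 CPM of these 10 genes, each centred on its own mean, was then used as a covariate. The difference was 0.97 for Anxa2 (adjusted p = 0.0282) and 1.07 for Lgals1 (adjusted p = 0.0924), and neither was called. With the naming scheme as a covariate, Lgals1 was called at 1.22 (adjusted p = 0.0266), while Anxa2 at 0.997 (adjusted p = 0.00398) fell just under the fold limit. Within the first scheme alone, with 3 WD and 6 SD libraries, Anxa2 was called at 1.00 (adjusted p = 0.042) and Lgals1 was not at 1.11 (adjusted p = 0.106), and Anxa1 stood at -0.27. The second scheme holds no SD library of this time point. Without WD replicates 4 and 6 the differences were 0.97 for Anxa2 (adjusted p = 0.022) and 1.06 for Lgals1 (adjusted p = 0.0835). The size of both differences was therefore near 2-fold in each of these fits, and the calls changed as a value crossed the limit on the fold or that on the adjusted p.

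Markers of other cell types were also called between the diets. Hp (mean 43.3 CPM on SD and 141 on WD, log2 difference 1.71) and F13a1 (1.19 and 6.71 CPM, 2.50) of the classical monocyte list and Clec9a (1.71 and 4.53 CPM, 1.40) of the dendritic cell list were higher on WD. So were the neutrophil marker Lcn2, with 0 to 5 reads in SD libraries and 10 to 94 in WD libraries, and the patrolling monocyte marker Spn, with 0 to 5 and 5 to 34. Called higher were 2 of 7 classical monocyte, 1 of 6 patrolling monocyte, 1 of 6 dendritic cell and 1 of 4 neutrophil markers tested. Plac8 (-0.62) and Ly6c2 (-0.32) of the classical list and Csf3r (-0.16) of the neutrophil list were lower, without a call. The other patrolling monocyte markers were all lower, from -0.012 for Ace to -2.01 for Nr4a1, and Cd300e (-0.76) had an adjusted p of 0.0187 (edgeR). The median difference was 0.74 over the classical and -0.22 over the patrolling list, 0.36 over the dendritic cell and 1.68 over the neutrophil list. Of the 7 stellate cell or fibroblast markers tested, Dcn alone was called, lower at -1.26, and the median over that list was -0.07. Classical monocyte markers summed to 168 to 264 CPM on SD and 224 to 350 on WD. Hp, with means of 43.3 and 141 CPM, is part of this sum, which was not taken without it. The part of these cell types in the result was not tested. Hepatocyte markers summed to 550 to 1657 CPM on SD and 1128 to 3349 on WD. By edgeR 4 of these 10 had an unadjusted p under 0.05, beside 3331 of all 13421 genes tested, and 0 were called. With the mean of the centred log2 CPM of the hepatocyte markers as a covariate, Anxa2 (1.23, adjusted p = 0.00111) and Lgals1 (1.23, adjusted p = 0.0175) were called.

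**Figure D4:**
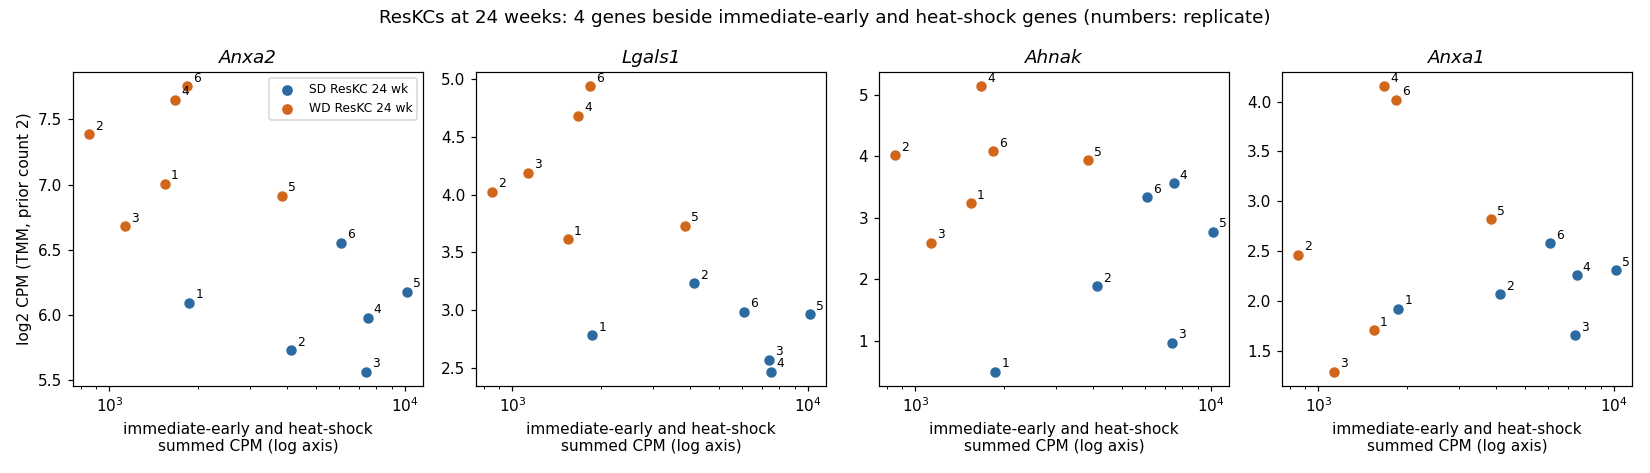
Log2 CPM of Anxa2, Lgals1, Ahnak and Anxa1 (y axes) in the SD and WD ResKC libraries at 24 weeks against the summed level of 10 immediate-early and heat-shock genes (x axes, CPM, log axis), with replicate numbers. All 6 WD libraries lie above all 6 SD libraries for Anxa2 and Lgals1, and most WD libraries lie to the left of the SD libraries.

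At 12 weeks no gene was called between diets, and the share of all genes called was 0%. With edgeR 2 of the 10 genes, S100a9 and Anxa2, had an unadjusted p under 0.05, beside 1172 of all 13421 genes tested. DESeq2 and limma-voom called 0 of the 10. Anxa2 averaged 60 ± 14.3 CPM (SD, n = 7) on SD and 85.1 ± 28.7 (n = 5) on WD, a log2 difference of 0.50 (SE 0.23, adjusted p = 0.53). Lgals1 averaged 7.27 ± 3.35 (n = 7) and 10.6 ± 7.97 (n = 5), and 1 WD library, replicate 3, stood at 24.8 CPM against 6.16 to 8.01 in the others. The groups overlapped for all 10 genes. The difference between the diet effects at 24 and 12 weeks was called for none of them, against 0.0596% of all genes. DESeq2 and limma-voom called 0 of the 10. In edgeR 1 of the 10 had an unadjusted p under 0.05, beside 1886 of all 13421 genes tested. That gene was Anxa2, whose diet effect was larger at 24 weeks by 0.73 (SE 0.32, adjusted p = 0.296). For Lgals1 the difference of effects was 0.90 (adjusted p = 0.399).

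Between 12 and 24 weeks no gene was called in SD ResKCs, where 0% of all genes were called, nor in WD ResKCs. In WD ResKCs, 0.387% of all genes were called higher at 24 weeks and 41 of 13421 lower. In SD ResKCs 2 genes, S100a8 and S100a9, had an unadjusted p under 0.05 in edgeR, and in WD ResKCs 4 did, namely Anxa1, Anxa2, Lgals1 and Ahnak. DESeq2 and limma-voom called 0 in both. Of the 4, Anxa2 had an adjusted p of 0.0369 with a log2 difference of 0.87, under the fold limit. Without WD replicate 3 at 12 weeks Lgals1 was called (1.45, adjusted p = 0.0201), and without WD replicate 5 Anxa2 was (1.05, adjusted p = 0.0418).

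S100a8 and S100a9, the calprotectin pair, were under 3 CPM in all 35 libraries and were called in none of the comparisons. S100a8 stood at 1.87, 0.711, 1.87, 1.24, 1.37 and 1.84 CPM in replicates 1 to 6 of the CLEC4F- macs. In WD ResKCs it stood at 0.725, 2.53, 1.46, 1.13, 0.876 and 1.58 CPM. The groups overlapped, and the log2 difference was 0.10 (95% interval -0.83 to 1.03, adjusted p = 0.899). S100a9 averaged 1.09 ± 0.458 CPM (SD, n = 6) in CLEC4F- macs and 0.62 ± 0.52 (n = 6) in WD ResKCs, a difference of 0.80 (95% interval -0.60 to 2.2, adjusted p = 0.412). Against moKCs the differences were 0.53 for S100a8 (adjusted p = 0.55) and 0.22 for S100a9 (adjusted p = 0.897). A difference of the size of that of S100a6 lay outside both intervals against ResKCs, while a 2-fold difference did not.

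The pair was counted from few reads. Summed over the 6 libraries of CLEC4F- macs there were 127 reads of S100a8 and 93 of S100a9, and over the 6 of WD ResKCs 107 and 48. S100a8 had more reads than S100a9 in 29 of 35 libraries. Over 1 CPM, S100a8 was found in 17 libraries and S100a9 in 9. Neutrophil markers (13 genes) summed to 73.6 to 130 CPM in CLEC4F- macs, 78.3 to 109 in WD ResKCs, 78.2 to 118 in SD ResKCs at 24 weeks and 69.0 to 90.0 in moKCs. Most of that sum was Csf3r, the G-CSF receptor, which averaged 91.9 CPM in CLEC4F- macs and 80.1 in WD ResKCs. Ly6g, Camp, Ngp, Elane, Mpo and Stfa2l1 were at 0 in all 6 CLEC4F- mac libraries. In SD ResKCs at 24 weeks 7 of the 13 were at 0, and in WD ResKCs and moKCs 3 each. Of the 4 neutrophil markers tested, Mmp8 was called higher in CLEC4F- macs, with a mean of 6.45 CPM against 1.58 in WD ResKCs (log2 difference 2.02, adjusted p = 0.00279).

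**Figure D5:**
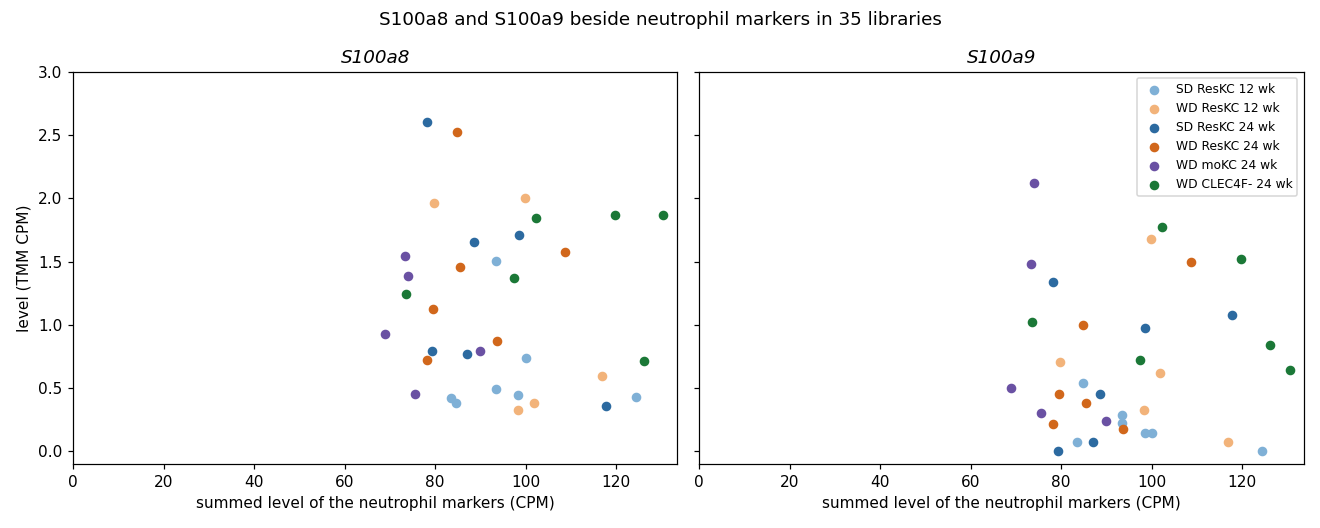
Level of S100a8 and S100a9 (y axes, CPM) in 35 libraries against the summed level of 13 neutrophil markers (x axes, CPM), coloured by group. No library exceeds 2.60 CPM of S100a8 or 2.12 CPM of S100a9, and the groups are mixed.

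The relatives of these genes were taken from lists of whole families. Of 10 other S100 genes, 3 passed the filter (S100a1, S100a13 and S100a16) and none was called between CLEC4F- macs and ResKCs. Of 10 other annexins, 7 passed and none was called, with Anxa4 (0.80) and Anxa5 (0.28) higher and Anxa6 (-0.79) and Anxa11 (-0.41) lower at an adjusted p under 0.05 but under the fold limit. Of 8 other galectins, 3 passed and none was called, and Lgals3, the most abundant, averaged 1419 CPM in CLEC4F- macs and 1007 in WD ResKCs (log2 difference 0.49, adjusted p = 0.000416). The median difference was 0.23 over the other S100 genes tested, 0.12 over the other annexins and -0.11 over the other galectins, beside 2.21 over the 9 genes without S100a4. In the diet comparison at 24 weeks these 3 lists also held no called gene, with S100a1 (-0.44) and S100a13 (-0.43) lower and Anxa4 (0.70), Lgals9 (0.40) and Lgals3 (0.34) higher on WD at an adjusted p under 0.05.

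Of 7 receptor genes for these proteins, 5 were tested. Emb, which encodes the basigin relative embigin, was higher in CLEC4F- macs, with a mean of 74.5 CPM against 1.57 in WD ResKCs (log2 difference 5.56, adjusted p = 6.15e-12). Fpr1, a formyl peptide receptor, was lower, with 134 against 407 CPM (-1.60, adjusted p = 3.75e-07). Tlr4 (-0.49), Bsg (-0.44) and Fpr2 (-0.59) were lower at an adjusted p under 0.05 but under the fold limit. The ligand gene Anxa1 and the receptor gene Fpr1 thus differed in opposite directions. Fpr2 was also lower on WD in ResKCs at 24 weeks (-0.87, adjusted p = 0.00785), under the fold limit.

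In the plasminogen system, Plau, which encodes urokinase, was called higher in CLEC4F- macs than in ResKCs (1.84, adjusted p = 6.62e-06, mean 12.1 against 3.38 CPM). Plaur, the urokinase receptor, was at 0.92 (adjusted p = 0.000219), under the fold limit. In ResKCs at 24 weeks Plaur (1.08, adjusted p = 0.000485) and Serpinb2 (3.27, adjusted p = 0.0173), an inhibitor of urokinase, were called higher on WD. Of 8 membrane repair partners, 7 were tested. Ahnak2, the paralogue of Ahnak, was called higher in CLEC4F- macs, where it had 4 to 49 reads a library against 0 to 7 in WD ResKCs, whose mean of 0.117 CPM lay below the floor, so no fold is given. At these counts no WD ResKC library exceeded 1 CPM, so other groups carried it past the filter, and it is given as a description. Dysf, which encodes dysferlin, was lower, with 38.3 against 182 CPM (-2.25, adjusted p = 2.73e-07).

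The genes whose pattern over the 35 libraries was most like the mean of the 8 genes other than S100a8 and S100a9 were Lat2 (Pearson correlation 0.961), Fabp5 (0.955), Gsn (0.951), Sorl1 (0.947) and Tmsb10 (0.945). Lat2, which encodes an adaptor of immune receptors, averaged 0.229 CPM in SD ResKCs at 24 weeks, 1.61 in WD ResKCs, 3.55 in moKCs and 47.2 in CLEC4F- macs. For S100a8 and S100a9 the highest correlations were lower, at 0.616 for Bcl2a1d, 0.609 for Tsc22d1, 0.608 for Kdm7a, 0.604 for Tes and 0.592 for Alkbh5. The points share their libraries, and the first correlations follow the CLEC4F- macs, which hold the high values.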

How the data were processed

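RNA-seq of 35 libraries of sorted liver macrophages was used. The authors mapped single reads to mm10 (HISAT2 2.2.0), counted them per gene (featureCounts 2.0.0), and deposited raw counts per gene. Tools and versions are from the submitters' processing notes, and the gene annotation and the handling of strand and multiply mapped reads are not given in the sources used here.

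The 10 genes and all lists were chosen with earlier results of these data known. From the deposited counts, 13421 of 54735 genes exceeded 1 CPM in 5 or more libraries and were tested. One edgeR (4.0.16) quasi-likelihood model held a mean for each of 6 groups, with TMM scaling and p-values adjusted by Benjamini-Hochberg over all genes tested. A gene was called at an adjusted p under 0.05 and an absolute log2 fold change over 1, the limits of the study's methods. The study used limma, and edgeR was taken because the values are counts. The test was run first on simulated data. All 10 genes were named in each comparison; of each list the genes called between CLEC4F- macs and ResKCs were named, others being chosen after their values were seen, and 1 gene of the plasminogen list is not reported here; similar genes are the 5 with the highest correlation for each group of genes. Alternatives used DESeq2 (1.42.0), limma-voom (3.58.1), other filters, scalings, limits, covariates and libraries left out. R 4.3.3, Python 3.11.15 and matplotlib 3.10.9 were used. No 2 libraries held identical counts.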

Additional observations from a re-analysis of the deposited data

Results flagged for a closer look

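Each of 60 sets of values (a gene in a group of 5 to 7 libraries) was tested for 1 library far from the rest (Dixon's test), which flags about 1 set in 20 by chance. It flagged 5. On the log2 CPM scale, Anxa1 in CLEC4F- mac replicate 4 was 5.34, against 6.93 to 7.61 in the others. Anxa2 in CLEC4F- mac replicate 6 was 8.64, against 7.93 to 8.16. Anxa2 in moKC replicate 1 was 6.45, against 7.63 to 7.92. Lgals1 in WD ResKC replicate 3 at 12 weeks was 4.64, against 2.66 to 3.03. Anxa1 in SD ResKC replicate 5 at 12 weeks was 1.04, against 1.94 to 2.49. No diet effect on any of the 10 genes passed the test for a difference between 12 and 24 weeks.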

How the results depend on the processing

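Of the 7 genes called between CLEC4F- macs and ResKCs, the 6 without S100a4 passed under each of 10 alternative settings and with any 1 library left out. S100a4, whose difference was built into the filter, also passed under the 10 settings, and 6 to 7 genes were called with 1 library left out. Between CLEC4F- macs and moKCs 6 to 7 were also called with 1 library left out, and 6 at stricter limits (1.5 on the log2 scale, adjusted p of 0.01), which S100a10 at 1.48 missed. These counts include S100a4, which drops out when it no longer passes the filter. Within the second naming scheme 5 genes were called against ResKCs and 6, with S100a4 among them, against moKCs.

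The count of 2 genes called between diets at 24 weeks was 0 at the stricter limits, 0 with the immediate-early covariate, 1 with the naming scheme as covariate, and 2 to 4 with 1 library left out (4 without WD ResKC replicate 3). In alternatives added after the data were seen, it was 0 without WD ResKC replicates 4 and 6 and 1 within the first naming scheme. For these the cause was not tested beyond the values given. In WD ResKCs from 12 to 24 weeks the count of 0 became 1 by adjusted p alone and 0 to 1 with 1 library left out. Between moKCs and ResKCs it became 2 without WD ResKC replicates 4 and 6 and 1 within the first scheme.

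Directions turned for values that had not passed the test. S100a8 between CLEC4F- macs and ResKCs was -0.24 with the immediate-early covariate, -0.064 within the first scheme and -0.029 to 0.36 with 1 library left out. With 1 library left out, S100a9 between CLEC4F- macs and moKCs was -0.018 to 0.76, and between diets at 12 weeks S100a11 was -0.073 to 0.46 and Lgals1 -0.052 to 0.70. Between moKCs and ResKCs, Ahnak was 0.093 without WD ResKC replicates 4 and 6 and 0.55 within the first scheme, S100a4, fitted from few reads, was 0.072 within the first scheme and Anxa1 -0.17 within the second. Within the first scheme, Anxa1 was -0.27 between diets at 24 weeks and -0.29 between times on WD, and the difference of diet effects for Lgals1 was -0.14.

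Same-numbered libraries varied together weakly or not at all (mean correlation of deviations 0.056 over 6 pairs between diets at 24 weeks and 0.117 over 6 pairs between CLEC4F- macs and ResKCs, where 4 of the 6 were over 0.1). Not every pair passed 0.1 in any comparison, and the numbers were not taken to pair the libraries. With a replicate block, 3 genes were called between diets at 24 weeks, Ahnak joining at 1.51 (adjusted p = 0.0499), 7 in both comparisons of CLEC4F- macs and 0 elsewhere. Scaling by library size alone moved the median of all genes between CLEC4F- macs and ResKCs from 0.02 to 0.14. Depth limits S100a4, S100a8 and S100a9, of which most libraries held few reads.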
